A study of Mus musculus with 6 samples.

Results

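Genes of tumour necrosis factor (TNF) receptor and TRAF signalling were compared between neutrophils of the liver and of the blood. The set held 10 genes, taken by symbol from the 53090 gene rows of each file, and each symbol had 1 row. It comprised the receptors Tnfrsf1a, Tnfrsf1b, Cd40 and Fas, the adaptors Traf1, Traf2 and Traf3, and the feedback and survival genes Tnfaip3, Tnip1 and Birc3. All 10 passed the filter on low counts. RNA was sequenced from 6 libraries of mouse cells, 3 from liver and 3 from blood, and every mouse had received for 1 week a diet with DDC (3,5-diethoxycarbonyl-1,4-dihydrocollidine), a compound used to injure bile ducts. No group on a normal diet was analysed here, so nothing below separates the effect of the diet from a difference between the compartments. Cells were taken with beads against Ly6G, a neutrophil surface protein. Liver cells first went through a Percoll gradient and blood cells through lysis of red cells, so the preparation and the tissue cannot be told apart. The sources used here give no strain, sex or age, nor any pairing of a liver with a blood library from the same mouse. Nothing else states that the 3 libraries of a group are separate animals, and p-values measure only the spread between these samples.

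TNF receptors sit on the cell surface as trimers. Tnfrsf1a (TNFR1) and Fas carry a death domain and can start cell death, while Tnfrsf1b (TNFR2) and Cd40 lack it and bind TRAF proteins directly. TRAF2 brings the ubiquitin ligases cIAP1 and cIAP2 to the receptor, which leads to activation of the transcription factor NF-kB, and TRAF3 holds the non-canonical branch of NF-kB in check. Tnfaip3 (A20) and Tnip1 (ABIN-1) are brakes on the same pathway, and Tnfaip3, Birc3 (cIAP2) and Traf1 are themselves textbook NF-kB targets. In neutrophils, TNF is known to prime the oxidative burst and to affect how long the cells live.

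In liver, 5 of the 10 genes were called higher and 0 were called lower. The 5 were Tnfrsf1b, Traf1, Tnfaip3, Tnip1 and Birc3. Traf1 was 21.8-fold and Tnfaip3 9.76-fold higher, and the other 3 were close to 2-fold higher (1.91 to 2.02). The remaining receptors Tnfrsf1a, Fas and Cd40 and the adaptors Traf2 and Traf3 did not pass the test. The threshold for a call was an adjusted p of 0.05 in edgeR's quasi-likelihood test, run over 13458 genes. That test called 31.6% of all genes, 17.4% in the direction of liver and 14.2% in that of blood. DESeq2 and limma-voom also called 0 of the 10 lower, and at an unadjusted p under 0.05 edgeR had 2, Tnfrsf1a and Traf2. The median log2 fold change of the 10 genes was 0.98, beside 0.04 for all genes tested.

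The libraries held 13054673 to 17579669 counts, and 3 counts corresponded to 0.181 to 0.263 CPM (counts relative to the TMM-scaled library size). All 14 neutrophil markers examined were detected, among them S100a8 at 728 to 4064 CPM, but 10 of the 14 were called lower in liver, including Ly6g, the protein used for selection, and Cxcr2. Their summed level was 8341 to 14554 CPM in liver and 23780 to 35083 CPM in blood. Hepatocyte markers were called higher in liver in 7 of 7 tested (12 listed), Kupffer cell and macrophage markers in 5 of 11, monocyte markers in 6 of 8 (1 lower), dendritic cell markers in 4 of 10 and liver endothelial markers in 4 of 5. Their summed levels in liver and blood were 273 to 519 and 108 to 151 CPM for hepatocytes, 478 to 864 and 328 to 506 CPM for Kupffer cells and macrophages, 1351 to 1876 and 1010 to 1245 CPM for monocytes, 326 to 455 and 136 to 248 CPM for dendritic cells, and 22.7 to 50.6 and 14.9 to 19.1 CPM for endothelium. No gene of these 5 lists was at 0 over a whole group. In the cholangiocyte list, summing to 46.2 to 72.6 and 11.2 to 14.6 CPM, Spp1 was called higher and Krt7 lower, and Krt19, Sox9 and Cftr were at 0 in blood. The stellate cell list summed to 4.24 to 5.92 CPM in liver and 0 to 1.41 in blood, with 1 gene tested, not called, and 5 genes at 0 in blood. B and plasma cell markers summed to 17.5 to 27.0 and 16.1 to 129 CPM (2 of 6 lower, Jchain at 0 in blood), and T and NK cell markers to 5.96 to 18 and 6.92 to 13.7 CPM (1 of 7 lower). Platelet markers summed to 7.70 to 16.3 and 34.8 to 207 CPM (3 of 6 lower), and erythroid markers to 143 to 2729 and 367 to 33691 CPM (0 of 6 called). Mitochondrially encoded genes took 9.0% to 12.5% of counts in liver and 4.30% to 6.69% in blood. The part of these differences in the results below was not tested. In such bulk libraries, fewer cells of a type and less RNA per cell cannot be told apart.

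Promoter letters are shown for Tnfaip3, Tnip1, Traf3 and Traf1, so that the reader can compare them. Both strongly and weakly changed genes of the set are known NF-kB targets, but Birc3, a weakly changed one, is not printed. RefSeq (GRCm38.p6) gave 10 start sites for 9 of the 10 genes, all but Cd40, and the 250 bases before each were searched on both strands. The NF-kB consensus was GGGRNNYYCC, with R for A or G, Y for C or T and N for any letter. It occurred in 7.25% of all 32851 promoters of that length and at 3 of the 10 start sites. These 3 were those of Tnfaip3 (the first of its 2), Tnip1 and Traf3. The AP-1 motif TGANTCA occurred at 2, Fas and the same start site of Tnfaip3, and in 6.75% of all promoters. The motifs were chosen with the expression results known. For Tnfaip3 (chr10, minus strand) the distal match lies in chr10:19015516-19015545 and the proximal one in chr10:19015411-19015432. In GENCODE, used for the other coordinates, Tnfaip3 starts further upstream, at 19015657. Both matches therefore lie inside the GENCODE gene, and 110 of the 250 bases are in its exons. For Tnip1 and Fas the RefSeq start lies before the GENCODE gene begins. The 250 bases are given for Tnip1 (chr11:54962941-54963190, minus strand), for Traf3 (chr12:111166120-111166369, plus strand), which did not pass the test, and for Traf1 (chr2:34961773-34962022, minus strand), which had the largest difference of the set. All are written 5′ to 3′ on the gene's strand, and capitals mark letters within the NF-kB consensus.
Tnfaip3 distal match: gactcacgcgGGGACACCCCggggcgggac
Tnfaip3 proximal match: aatttccatcGGAAATCCCCct
Tnip1 promoter: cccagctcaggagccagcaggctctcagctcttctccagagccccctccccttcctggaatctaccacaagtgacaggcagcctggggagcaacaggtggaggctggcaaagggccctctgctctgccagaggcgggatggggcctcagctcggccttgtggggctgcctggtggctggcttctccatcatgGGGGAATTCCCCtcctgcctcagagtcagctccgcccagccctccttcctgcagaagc
Traf3 promoter: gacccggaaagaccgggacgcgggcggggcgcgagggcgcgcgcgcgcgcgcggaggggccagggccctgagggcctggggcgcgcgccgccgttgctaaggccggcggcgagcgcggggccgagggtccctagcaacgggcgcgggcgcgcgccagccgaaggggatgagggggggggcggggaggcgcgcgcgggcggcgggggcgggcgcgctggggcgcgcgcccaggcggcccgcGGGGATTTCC
Traf1 promoter: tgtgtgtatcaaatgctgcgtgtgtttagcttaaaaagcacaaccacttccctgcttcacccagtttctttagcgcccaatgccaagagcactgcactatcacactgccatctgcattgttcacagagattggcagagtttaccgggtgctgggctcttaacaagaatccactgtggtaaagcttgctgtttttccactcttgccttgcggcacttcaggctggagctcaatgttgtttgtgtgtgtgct

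In Tnip1 the match was a stretch of 12 letters holding 3 overlapping matches, GGGGAATTCCCC, beginning 58 bases before the start site. In Traf3 it was the last 10 letters before the start site. A match describes letters only, and the absence of one in Traf1, Birc3, Tnfrsf1b, Tnfrsf1a, Traf2 and Fas says only that these letters are not in this window.

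The receptors did not move together. Tnfrsf1b, which encodes the TNF receptor without a death domain, lies on chromosome 4 from 145213463 to 145246870 (GRCm38, minus strand). It had 840, 644 and 607 CPM in liver 1, 2 and 3 and 339, 337 and 359 CPM in blood 1, 2 and 3. Every liver library was above every blood library. The means were 697 ± 125 and 345 ± 11.9 CPM (SD, n = 3 each). Tnfrsf1b rose by 1.01 ± 0.20 on the log2 scale (SE, edgeR adjusted p = 0.00559).

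Tnfrsf1a, the death-domain TNF receptor on chromosome 6 (125349362 to 125362484, plus strand), had 411, 411 and 291 CPM in liver and 538, 603 and 441 CPM in blood. The groups did not overlap and liver was on the low side, at 371 ± 68.9 against 527 ± 81.4 CPM (SD, n = 3 each). The log2 fold change of -0.51 ± 0.22 (SE) did not pass the test, with an edgeR adjusted p of 0.105. Groups failed to overlap for 8 of the 10 genes, beside 48.5% of all genes tested.

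The balance of the TNF receptors was therefore read within each library, where library scaling cancels. The ratio of Tnfrsf1b to Tnfrsf1a counts per kilobase of exon was 1.39, 1.065 and 1.41 in liver 1, 2 and 3 and 0.428, 0.379 and 0.552 in blood 1, 2 and 3. Tnfrsf1b was above Tnfrsf1a in each liver library and below it in each blood library. The ratio differed 2.86-fold, or by 1.51 on the log2 scale. An exact permutation test over libraries (two-sided) gave p = 0.10, the smallest value that 3 against 3 allows, and 0.10 after adjustment over the 4 ratios computed.

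Fas, the death receptor for Fas ligand on chromosome 19 (34290666 to 34327772, plus strand), had 42.3, 33.4 and 26.7 CPM in liver and 45.7, 47.8 and 45.9 CPM in blood. Each liver library was below each blood library, by little in liver 1. The log2 fold change of -0.45 ± 0.22 (SE) did not pass edgeR's test (adjusted p = 0.142).

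Cd40, a costimulatory receptor best known on B cells, dendritic cells and macrophages (chromosome 2, 165055627 to 165072948, plus strand), was the least abundant of the set. It had 7, 55 and 35 counts in liver 1, 2 and 3 and 5, 12 and 5 counts in blood, or 0.457, 3.31 and 2.25 CPM against 0.359, 1.05 and 0.336 CPM. Liver 1 lay among the blood libraries, so the groups overlapped. The log2 fold change of 1.80 ± 0.84 (SE) did not pass edgeR's test (adjusted p = 0.127) and was 1.22 without liver 2. Dendritic cell markers summed to 397, 326 and 455 CPM in liver 1, 2 and 3. Kupffer cell and macrophage markers summed to 655, 478 and 864 CPM there, and B and plasma cell markers to 27.0, 17.5 and 23.2 CPM. The part of other cells in the Cd40 counts was not tested.

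**Figure D1:**
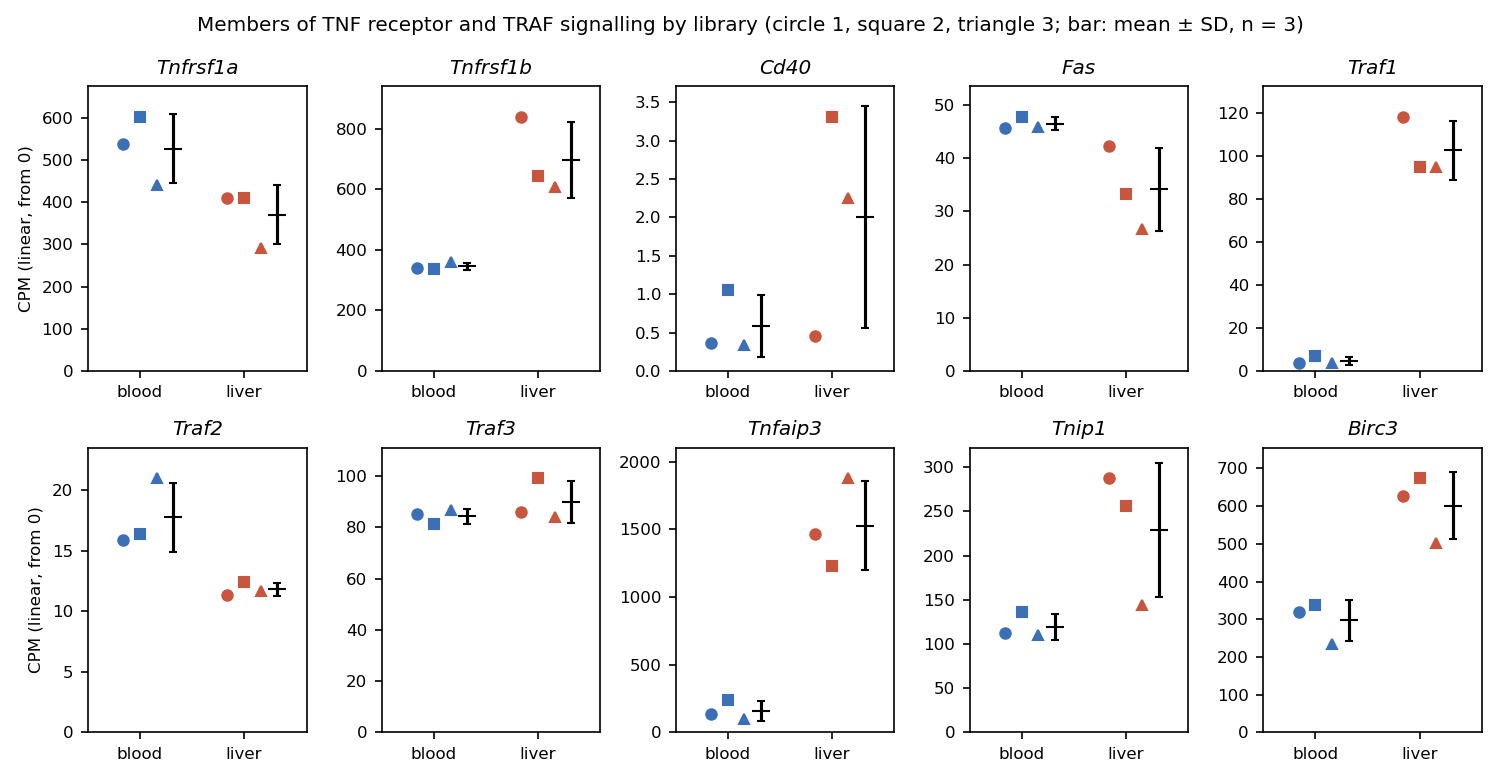
Level of each of the 10 genes in every library, in CPM on linear axes from 0, with blood in blue and liver in red and the mean ± SD (n = 3) beside the points. Traf1 and Tnfaip3 in liver stand far above blood, Tnfrsf1b, Tnip1 and Birc3 are above it by less, and Cd40 and Traf3 overlap.

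Among the adaptors the difference lay in Traf1. It encodes a TRAF protein without the RING domain of its relatives, which pairs with TRAF2 and binds cIAP proteins, and it lies on chromosome 2 from 34941750 to 34961772 (minus strand). Traf1 had 118, 94.8 and 94.9 CPM in liver 1, 2 and 3 and 3.74, 6.83 and 3.63 CPM in blood 1, 2 and 3. The blood values rest on 52, 78 and 54 counts, well above the floor of 3 counts. The lowest liver library was more than 10-fold above the highest blood library. The means were 103 ± 13.6 and 4.73 ± 1.82 CPM (SD, n = 3 each), and Traf1 rose by 4.45 ± 0.30 on the log2 scale (SE, edgeR adjusted p = 6.72e-05). Its fold change ranked 209 from the top among the 13458 genes tested, and that of Tnfaip3 ranked 500.

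Traf2, the adaptor that recruits cIAP proteins (chromosome 2, 25517982 to 25546940, minus strand), had 11.4, 12.4 and 11.7 CPM in liver and 15.9, 16.4 and 21 CPM in blood. Every liver library was below every blood library, but the log2 fold change of -0.59 ± 0.25 (SE) did not pass edgeR's test (adjusted p = 0.102). Traf3, the adaptor that restrains the non-canonical branch (chromosome 12, 111166370 to 111267153, plus strand), had 86.1, 99.3 and 84.0 CPM in liver and 85.1, 81.1 and 86.6 CPM in blood. Its groups overlapped, with a log2 fold change of 0.09 ± 0.17 (SE, edgeR adjusted p = 0.708).

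Within each library the make-up of the TRAF transcripts differed accordingly. Per kilobase of exon, the ratio of Traf1 to Traf2 was 6.02, 4.41 and 4.68 in liver and 0.137, 0.242 and 0.101 in blood, so Traf1 passed from below Traf2 in blood to above it in liver. The ratio of Traf1 to Traf3 was 1.15, 0.796 and 0.942 in liver and 0.0369, 0.0706 and 0.0352 in blood. In liver the pair was near equal. Both differences, 33.4-fold and 21.1-fold, gave an exact permutation p of 0.10, again the smallest possible.

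**Figure D2:**
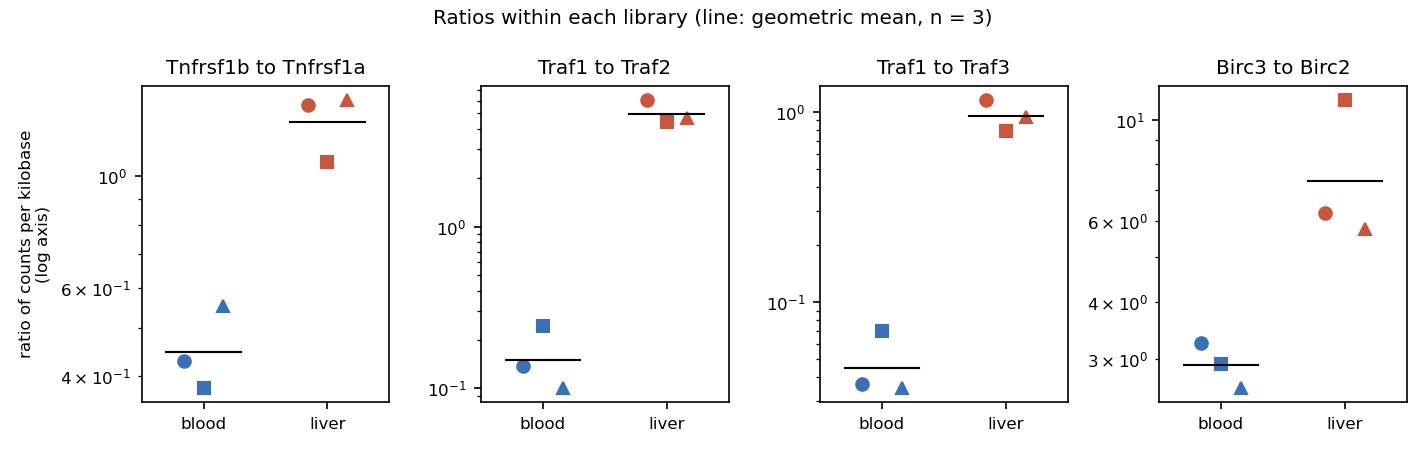
Ratios of counts per kilobase within each library on log axes, with a line at the geometric mean of 3 libraries. The Tnfrsf1b to Tnfrsf1a ratio is above 1 in each liver library and below 1 in each blood library, and the Traf1 to Traf2 ratio does the same.

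All 3 feedback and survival genes were called higher in liver, beside 17.4% of all genes tested. Tnfaip3, which encodes the ubiquitin-editing enzyme A20 (chromosome 10, 19000910 to 19015657, minus strand), had 1468, 1233 and 1879 CPM in liver 1, 2 and 3 and 132, 241 and 96.5 CPM in blood 1, 2 and 3. The groups were far apart, and the blood libraries differed among themselves more than those of Tnfrsf1b did. The means were 1527 ± 327 and 156 ± 75.0 CPM (SD, n = 3 each), and Tnfaip3 rose by 3.29 ± 0.36 on the log2 scale (SE, edgeR adjusted p = 0.000479).

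Tnip1, which encodes a partner of A20 that binds ubiquitin chains (chromosome 11, 54910785 to 54962917, minus strand), had 288, 256 and 144 CPM in liver and 113, 136 and 110 CPM in blood. Liver 3 was only just above the highest blood library. Tnip1 rose by 0.94 ± 0.26 on the log2 scale (SE, edgeR adjusted p = 0.0225). That call was the least secure of the 5, since leaving out liver 1, liver 2, blood 1 or blood 3 ended it, with edgeR adjusted p of 0.0682 to 0.0883.

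Birc3, the gene of the ubiquitin ligase and apoptosis inhibitor cIAP2 (chromosome 9, 7848699 to 7873186, minus strand), had 628, 675 and 503 CPM in liver and 319, 338 and 235 CPM in blood. The groups did not overlap, and Birc3 rose by 1.02 ± 0.22 on the log2 scale (SE, edgeR adjusted p = 0.00791). Its counts were fractional in all 6 libraries, the only gene of the set for which this was so, as happens where RSEM divides reads between genes. Its close relative Birc2 (cIAP1) had 92.0, 56.0 and 79.6 CPM in liver and 89.5, 105 and 83.0 CPM in blood and did not pass the test (log2 fold change -0.29 ± 0.22). Per kilobase, the Birc3 to Birc2 ratio was 6.24, 11 and 5.77 in liver and 3.26, 2.93 and 2.59 in blood. This was a 2.52-fold difference with an exact permutation p of 0.10. On the log2 scale it was 1.33, and ran from 1.04 without liver 2 to 1.51 without liver 3.

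**Figure D3:**
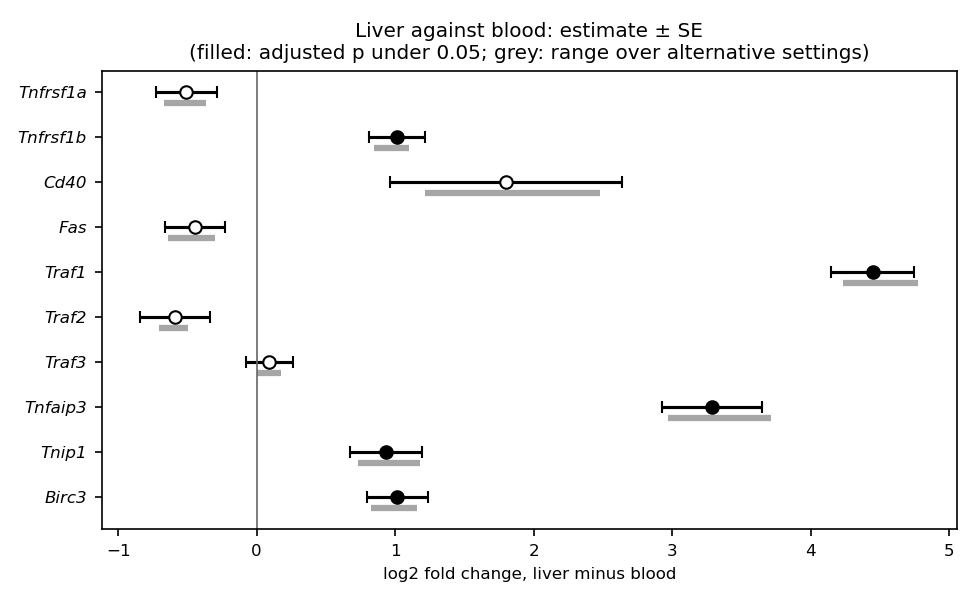
Log2 fold change, liver minus blood, of each gene (point) with its SE (bar), filled where the adjusted p was under 0.05, and in grey the range over the alternative settings. Traf1 at 4.45 and Tnfaip3 at 3.29 lie apart from the rest, and no grey range of a filled gene reaches 0.

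The order of the transcripts changed as well. Levels can be compared between genes only per length, here CPM per kilobase of all annotated exons, a length that understates genes whose long exons are little used. In blood Tnfrsf1a led at 204 ± 31.4, followed by Tnfrsf1b at 90.4 ± 3.11, Birc3 at 59.4 ± 10.9 and Tnip1 at 33.8 ± 4.13 CPM per kilobase (SD, n = 3). Fas at 22.5 ± 0.578 and Tnfaip3 at 21.7 ± 10.4 could not be ranked, as their libraries overlapped, and Tnfaip3 also overlapped with Tnip1. Traf3 at 11.5, Traf2 at 3.48, Traf1 at 0.537 and Cd40 at 0.171 CPM per kilobase came next, without overlap between neighbours.

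In liver Tnfaip3 led at 211 ± 45.3, with Tnfrsf1b at 183 ± 32.8, Tnfrsf1a at 143 ± 26.6 and Birc3 at 120 ± 17.8 CPM per kilobase (SD, n = 3). Tnfaip3 and Tnfrsf1b overlapped, as did Tnfrsf1a and Birc3, so the order within each pair is not resolved. Tnip1 followed at 64.7 ± 21.3, and then Fas at 16.5, Traf3 at 12.2 and Traf1 at 11.6 CPM per kilobase, where neighbours again overlapped. Traf2 at 2.32 and Cd40 at 0.589 CPM per kilobase were lowest. Tnfaip3 was thus below Tnfrsf1a, Tnfrsf1b and Birc3 in every blood library and above Tnfrsf1a and Birc3 in every liver library, and Traf1 was below Traf2 in every blood library and above it in every liver library.

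**Figure D4:**
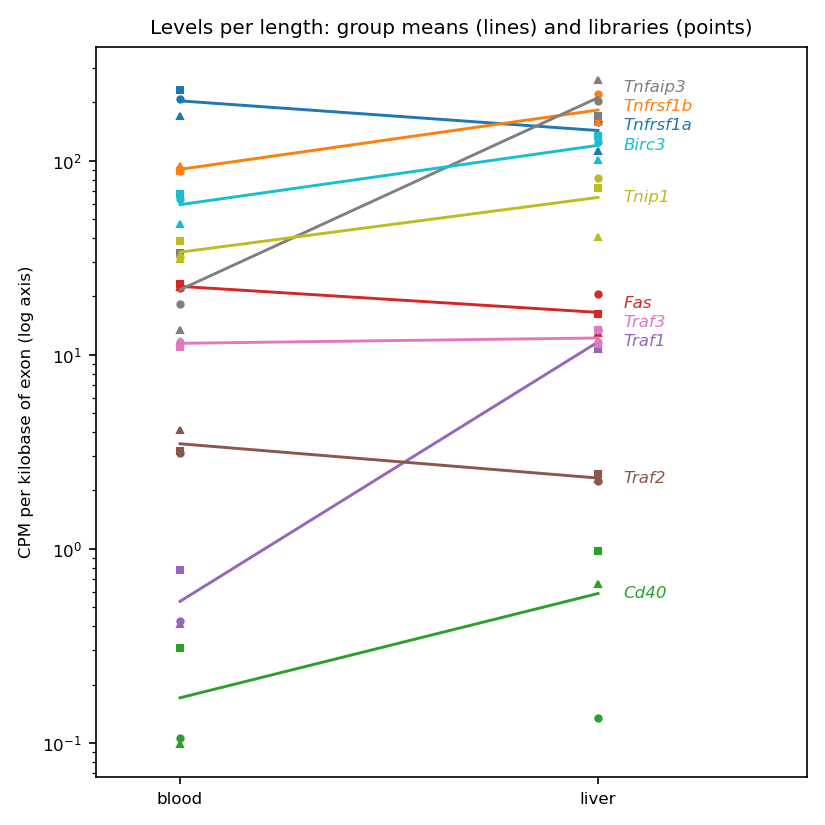
CPM per kilobase of exon on a log axis for each gene in blood and liver, with lines joining group means and points for the libraries. The lines of Tnfaip3 and Traf1 rise steeply and cross others, while that of Traf3 is nearly level.

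The liver libraries did not rank the same way for every gene. Liver 3 had the highest summed hepatocyte, Kupffer cell and macrophage, monocyte, dendritic cell and endothelial markers. It also had the lowest summed neutrophil markers, at 8341 CPM against 12324 in liver 1 and 14554 in liver 2. Of the 5 called genes, Tnfaip3 was highest in liver 3, whereas Tnfrsf1b, Tnip1 and Birc3 were lowest there, and Traf1 was near its lowest level. Without liver 3 the log2 fold changes were 1.10 for Tnfrsf1b, 4.50 for Traf1, 3.11 for Tnfaip3, 1.18 for Tnip1 and 1.13 for Birc3, and all 5 calls held. Liver 1 and 2 also exceeded blood in summed hepatocyte markers, at 273 and 336 against 108 to 151 CPM. The part of other cells in these calls was not tested. In blood, library 2 had the highest Traf1, Tnfaip3, Tnip1, Birc3, Cd40, Tnfrsf1a and Fas. Library 3 of blood had the highest Tnfrsf1b, Traf2 and Traf3.

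For 9 of the genes, the other gene with the most similar pattern was found by the root mean square distance of centred log2 CPM over the 6 libraries, among genes with a mean of at least 10 CPM. Traf1 was nearest to Spp1 (osteopontin, distance 0.26), with means of 55.7 CPM in liver and 2.04 in blood. Tnfaip3 was nearest to Mllt6 (0.24), Tnfrsf1b to Ddost (0.07), Tnip1 to Sertad1 (0.10) and Birc3 to the gene model AC102114.1 (0.08). Tnfrsf1a was nearest to Itpr2 (0.06), Traf2 to Phf8 (0.05), Traf3 to Pspc1 (0.04) and Cd40 to Cass4 (0.37). All distances rest on the same 6 libraries, and a pattern over 2 groups has few free values.

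Of 5 ligand genes examined, 3 were tested and 2 were called higher in liver, beside 17.4% of all genes tested. Tnf, the ligand of Tnfrsf1a and Tnfrsf1b, had 119, 234 and 136 CPM in liver against 5.10, 7.71 and 6.51 CPM in blood, and rose by 4.66 ± 0.32 on the log2 scale (SE, edgeR adjusted p = 7.46e-05). Fasl, the ligand of Fas, had 48, 41 and 55 counts in liver and 7, 4 and 3 in blood, and rose by 3.09 ± 0.60 (edgeR adjusted p = 0.00504). All 3 liver libraries were above all blood libraries for both. Ltb, a lymphotoxin subunit, did not pass the test (-0.52 ± 0.25), but was called lower without liver 2 (-0.84, edgeR adjusted p = 0.0267). Lta had 5 to 6 counts in liver libraries and 2 to 3 in those of blood, and Cd40lg had counts in 1 library of each group, so neither was tested.

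Of 24 other TNF receptor genes, 16 were tested, and 5 rose while 2 fell (median log2 fold change 0.56). Of all genes tested, 17.4% were called higher and 14.2% lower. Tnfrsf26 (2.59 ± 0.40) and Tnfrsf22 (2.55 ± 0.63), members of the mouse cluster that includes TRAIL decoy receptors, were 6.0-fold and 5.84-fold higher. Tnfrsf26 was at 2.00 and Tnfrsf22 at 1.93 without liver 2, and the latter call was lost without blood 3 (edgeR adjusted p = 0.0538). Their neighbour Tnfrsf23, the most abundant of the list with 133 ± 64.1 and 62.4 ± 18.1 CPM (SD, n = 3), did not pass the test (edgeR adjusted p = 0.0578) but was called higher in 8 of 17 alternatives, with DESeq2 (adjusted p = 0.018) and without liver 3 (1.41, 0.0076) among them. These genes resemble each other, so reads may be shared between them. Tnfrsf8, Tnfrsf11a and Tnfrsf12a, named here only to complete the count, were the other 3 that rose. Relt went the other way, from 161, 141 and 146 CPM in blood to 30.5, 36.8 and 31.8 CPM in liver, a 4.52-fold fall, and Ltbr, named to complete the count, also fell.

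Among 25 other adaptors and kinases, all tested, 5 rose and 3 fell (median log2 fold change 0.11). Over all genes tested the shares were 17.4% and 14.2%, so these counts are close to them. Ikbke, an IKK-related kinase, was 10.2-fold higher, at 94.1, 81.1 and 59.2 CPM in liver and 6.25, 13.8 and 3.16 CPM in blood. Its log2 fold change was 3.35, and ran from 2.92 without blood 3 to 4.03 without blood 2. Sqstm1 (p62), a ubiquitin-binding scaffold, was 3.14-fold higher and the most abundant of the list, with 598 ± 71.6 and 190 ± 9.71 CPM (SD, n = 3). Tank, a TRAF-binding adaptor of IKK-related kinases, was 2.05-fold higher, but its call was lost on leaving out any library except liver 3 (edgeR adjusted p 0.0504 to 0.0786). Tbk1 and Ripk3 also rose, and Tab2, Map3k5 and Traf3ip3 fell. Those 5 are named to complete the counts. The core adaptors of TNFR1 signalling were not among the called genes, with log2 fold changes of -0.17 ± 0.35 for Tradd and -0.35 ± 0.17 for Ripk1.

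Among other ubiquitin editors and brakes, more genes fell than rose. Of 18 tested, 2 rose and 5 fell (median log2 fold change -0.24), beside 17.4% and 14.2% of all genes tested. Rnf31 (HOIP), the catalytic subunit of the linear ubiquitin ligase LUBAC, fell from 101, 156 and 103 CPM in blood to 39.1, 52.9 and 40.6 CPM in liver (2.72-fold). Rnf11, which works with A20, was 1.97-fold lower. Sharpin, another LUBAC subunit, Xiap and Otud7b also fell, and are named to complete the count. Zc3h12a (Regnase-1), an RNase that degrades inflammatory mRNAs, was 3.66-fold higher, and Tnip3 was the other that rose. The deubiquitinase Cyld did not pass the test (0.39 ± 0.22), nor did Tax1bp1, the most abundant gene of the list, at 587 ± 105 and 566 ± 72.6 CPM (SD, n = 3). The 3 feedback and survival genes of the set and this list gave counts of 3 of 3 and 2 of 18 higher. The groups are not alike in function, as Birc3 is in the set and its relative Birc2 in this list. The difference was not tested because the genes of the set were chosen with these results known.

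Of 9 genes of receptor shedding and silencing, 6 were tested and 2 rose, beside 17.4% of all genes tested. Adam17, the protease that sheds TNF and its receptors, was 1.89-fold higher, and Faim, an inhibitor of Fas-induced death, 1.86-fold higher. The Adam17 call was lost without liver 2 or blood 1 (edgeR adjusted p 0.0522 to 0.0698), and that of Faim without any library except blood 2 (0.0808 to 0.145). Rhbdf2 (iRhom2), a partner of ADAM17 and the most abundant of the list, did not pass the test (-0.51 ± 0.19). In the non-canonical NF-kB branch 3 of 8 rose, Birc3 among them, beside 17.4% of all genes tested. That list shares Traf2, Traf3 and Birc3 with the set. Nfkb2 had 357, 257 and 161 CPM in liver against 55.8, 89.4 and 54.2 CPM in blood, and its partner Relb 132, 112 and 65.6 CPM against 13.9, 32.9 and 18.9 CPM, 3.89-fold and 4.71-fold higher. In both, liver 3 was the lowest of the liver libraries and blood 2 the highest of the blood libraries.

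**Figure D5:**
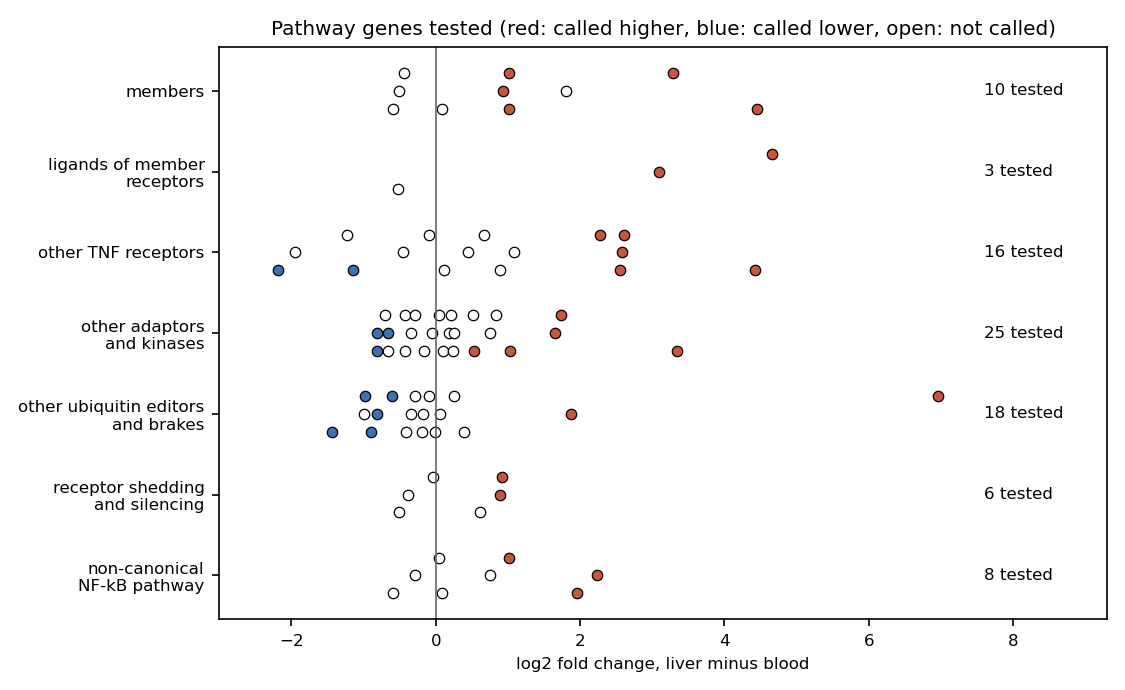
Log2 fold change, liver minus blood, of each tested gene by list, red where called higher, blue where called lower and open where not called. Calls in both directions occur among other receptors, adaptors and ubiquitin editors, with Traf1 at 4.45, Tnf at 4.66 and Ikbke at 3.35 the rightmost genes of their lists. The gene at 6.96 is Tnip3, whose blood libraries held 2 counts in all, so its size is uncertain.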

How the data were processed

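The deposited values are expected counts per gene, made by the authors. STAR, RSEM, limma, FastQC 0.11.5 and the build GRCm38 are named per the submitters' processing notes. The sources used here give no version of STAR or RSEM, no filter and no strand setting, so antisense partners cannot be told apart from a gene. The libraries were stranded total-RNA libraries, per the labels' protocols. Expected counts were rounded to whole numbers. Of the 53090 rows, 98.9% matched GENCODE M21 (GRCm38) by identifier, from which coordinates and exon lengths were taken. No exon of the 10 genes overlapped an exon of another gene there.

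A low-count filter (filterByExpr, minimum count 10 and total 15) and TMM scaling preceded the test with edgeR 4.0.16 (R 4.3.3), robust quasi-likelihood, liver against blood, with Benjamini-Hochberg adjustment over all genes. Standard errors come from the F statistic. Ratios added 0.5 to each count and used a two-sided exact permutation test. The 17 alternatives included DESeq2 1.42.0 and limma-voom (3.58.1).

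The genes, lists, motifs and tests were chosen with earlier results of these data known. Named are the 10 genes, their ligands, their nearest patterns, Ly6g, Cxcr2 and S100a8 and, from each list, the most abundant gene and up to 3 called genes with the largest change and a mean of at least 5 CPM. Names outside this rule complete counts and were chosen after values were seen, as were Tradd, Ripk1 and Cyld. Birc2 was named for its ratio to Birc3. The nearest pattern to Fas is not reported here.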

Additional observations from a re-analysis of the deposited data

How the results depend on the processing

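Over 17 alternatives, Tnfrsf1b, Traf1, Tnfaip3 and Birc3 were called higher in all, with log2 fold changes of 0.85 to 1.10, 4.23 to 4.77, 2.97 to 3.71 and 0.83 to 1.16. Tnip1 was called in 13 (0.73 to 1.18). Fas, Traf2 and Traf3 were called in none of 17, and Cd40 in none of the 16 that tested it. Among the 10 genes, 4 to 5 were called higher when a library was left out. Whether same-numbered libraries share a mouse is unknown. Their deviations correlated at 0.05, 0.16 and 0.02, beside -0.18 to 0.12 for libraries of different number. With 3 libraries per group these values cannot decide pairing. The libraries were treated as unpaired because no source states a pairing. With the number as a replicate block, 1 gene of the set, Tnfrsf1a, was called lower (-0.51, edgeR adjusted p = 0.0228) in place of 0, and 5 were higher. Of the other named genes, that block ended the call of Tnfrsf22 (2.43, edgeR adjusted p = 0.0820) and called Ltb (-0.57, 0.0402), Rhbdf2 (-0.51, 0.0274) and Tnfrsf23 (0.99, 0.0414). Over all genes that block called 2322 higher and 2312 lower, beside 2336 and 1916. Blocked permutation of the ratios gave 0.25, the smallest that 3 pairs allow. Without liver 3 and blood 1 together, 1195 genes were called lower and 1631 higher. Tax1bp1, not called (0.05), ran from -0.090 to 0.18 when a library was left out, below 0 without liver 2 (-0.090), blood 1 (-0.041) or blood 3 (-0.051). The cause of these shifts was not tested. Cd40 had 5 to 55 counts per library, so its values carry the largest relative counting error of the set.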
